A study of Mus musculus with 8 samples.

Results

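NF-κB is a family of dimeric transcription factors. The genes described here include the 5 that encode its subunits (*Nfkb1*, *Nfkb2*, *Rela*, *Relb* and *Rel*). The other 5 are grouped here as its inhibitors (*Nfkbia*, *Nfkbib*, *Nfkbie*, *Nfkbiz* and *Tnfaip3*). All of these genes were found in the expression tables of mouse rib chondrocytes by their gene symbols in the GENCODE M21 annotation. They make up 10 of the 52325 gene identifiers that each table lists. All 10 passed the filter on low values, as did 17177 genes in all. The values are TPM, a transcript level divided by transcript length and brought to the same total in every library, so that levels of different genes in a library can be set side by side.

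The study asked which transcripts differ when the *Mir140* locus is missing, a locus that encodes miR-140-5p and the 5′ variants (isomiRs) of miR-140-3p, which are abundant in cartilage. Costal chondrocytes were released with collagenase from the ribs of 7-day-old mice on a C57BL/6J strain background, and mRNA libraries were made from 500 ng of total RNA and sequenced as 75-bp single-end reads, with over 12 M reads a sample. There were 4 libraries from wild-type control mice (WT) and 4 from *Mir140*-null mice, with no further treatment in either group. The deletion was made with CRISPR/Cas9 in zygotes, so all miRNAs of the locus are lost in every cell of the animal and not in cartilage alone. Founder mice of mixed C57BL/6 and CBA/ca origin were backcrossed to C57BL/6J, and separate wild-type and null lines were then bred from heterozygous animals, so the effect of the deletion and other differences between the lines cannot be told apart. The labels do not say whether each library came from 1 animal or from a pool, and p-values therefore measure the spread between these samples.

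In resting cells, NF-κB dimers are kept in the cytoplasm by inhibitors of the IκB family. Receptors for interleukin-1, tumor necrosis factor and microbial products activate a kinase complex that marks the IκB proteins for degradation, and the freed dimers enter the nucleus and switch on inflammatory genes, among them the genes of their own inhibitors. In chondrocytes the pathway is known for inducing chemokines, nitric oxide synthase and the metalloproteinases that break down cartilage matrix. The products of *Rela*, *Relb* and *Rel* carry a transactivation domain, whereas those of *Nfkb1* and *Nfkb2* are precursors that act as inhibitors until they are trimmed to shorter DNA-binding subunits.

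Some features of the libraries stand beside every result. The deleted gene itself had 0 TPM in 7 libraries, all WT libraries included, and 8.86 TPM in the one labelled *Mir140*-null replicate 2, so it does not check the labels. The cartilage markers *Col2a1*, *Acan* and *Sox9* belonged to a list of 10 whose summed TPM was 59561 to 74867 in WT and 44432 to 61142 in *Mir140*-null libraries. Most of this sum was *Col2a1*, whose mean went from 57785 TPM in WT to 41414 TPM in *Mir140*-null libraries. The means of *Acan* (552 to 1010 TPM) and *Sox9* (146 to 178 TPM) went the other way. *Mir140*-null replicates 1 and 2 stood apart from the other 6 libraries. Their summed TPM of 8 fibroblast markers was 329 and 341, against 1428 to 3017 in the others, and that of 8 osteoblast markers was 62.8 and 64.7, against 817 to 1576. WT replicate 1 had the highest sum of 10 immediate-early and heat shock genes, at 14397 TPM, against 7384 to 9067 in the other WT libraries. The genes of the mitochondrial genome made up 4.06% to 6.99% of all TPM in WT and 8.41% to 10.1% in *Mir140*-null libraries, without overlap, and the part of this difference in the results was not tested. At least 0.5 TPM was reached by 15800 and 16056 genes in *Mir140*-null replicates 1 and 2 and by 16991 to 17950 genes in the others. Where calls are counted below for the members or a gene list, the count is given with and without *Mir140*-null replicates 1 and 2. In such bulk samples, fewer cells of a type and less RNA per cell cannot be told apart.

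*Nfkb1* was the member that differed most between the genotypes. It encodes the precursor of the most widespread DNA-binding subunit, and lies on the minus strand of chromosome 3 at 135584655 to 135691547 (GRCm38/mm10). In WT replicates 1 to 4 its level was 40.7, 64.1, 48.4 and 55.3 TPM, and in *Mir140*-null replicates 1 to 4 it was 182, 154, 112 and 103 TPM. The lowest *Mir140*-null library lay well above the highest WT library, and replicates 1 and 2 were the highest of the null group. The mean rose from 52.1 ± 9.99 to 137.6 ± 37.2 TPM (SD, n = 4 each), a 2.64-fold difference of the means. On the log2(TPM + 1) scale, used for all fold changes below, the difference was 1.36 (SE 0.21, 95% interval 0.87 to 1.86), with an adjusted p of 0.00905 (limma fitted to all 17177 genes, two-sided, Benjamini-Hochberg adjustment). A gene was called up- or down-regulated below an adjusted p of 0.05.

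Of the 10 members, *Nfkb1* was the only one called up-regulated and none was called down-regulated. Over all genes tested, 10.5% were called up-regulated and 6.4% down-regulated. At an unadjusted p under 0.05 from the same limma fit, *Nfkb2* and *Rel* were also higher and 0 members were lower. The 4 levels of each genotype did not overlap for 3 members, *Nfkb1*, *Nfkb2* and *Rel*, all higher in *Mir140*-null, where 15.7% of all genes tested were higher and 10.2% lower without overlap. The median log2 fold change was 0.22 over the 10 members and -0.0088 over all genes tested. It was 0.11 over the 9468 of those with a mean of at least 5 TPM, the range in which every member lies. Calls were more common in that range. Of those 9468 genes, 1475 were called up-regulated and 520 down-regulated, and 2140 were higher and 811 lower without overlap. Without *Mir140*-null replicates 1 and 2 the median log2 fold change was 0.094 over the 10 members and 0.0715 over all genes tested. After quantile normalization the median was 0.057 over the members and 0.026 over all genes tested.

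The call of *Nfkb1* depended little on any single library, since leaving out each in turn gave a log2 fold change of 1.22 to 1.49 and an adjusted p of 0.0144 to 0.0321. Without *Mir140*-null replicates 1 and 2 the difference was 1.04 (adjusted p = 0.0474), in a fit that called 2.08% of all genes up-regulated. Without WT replicate 1 as well, it was 0.93 with an adjusted p of 0.0530, so the gene was no longer called and 0 members were (limma, 3 at an unadjusted p under 0.05). That fit called 1.2% of all genes up-regulated. With the replicate number as a block, *Nfkb1* was called (adjusted p = 0.0424) among 3.91% of all genes.

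**Figure D1:**
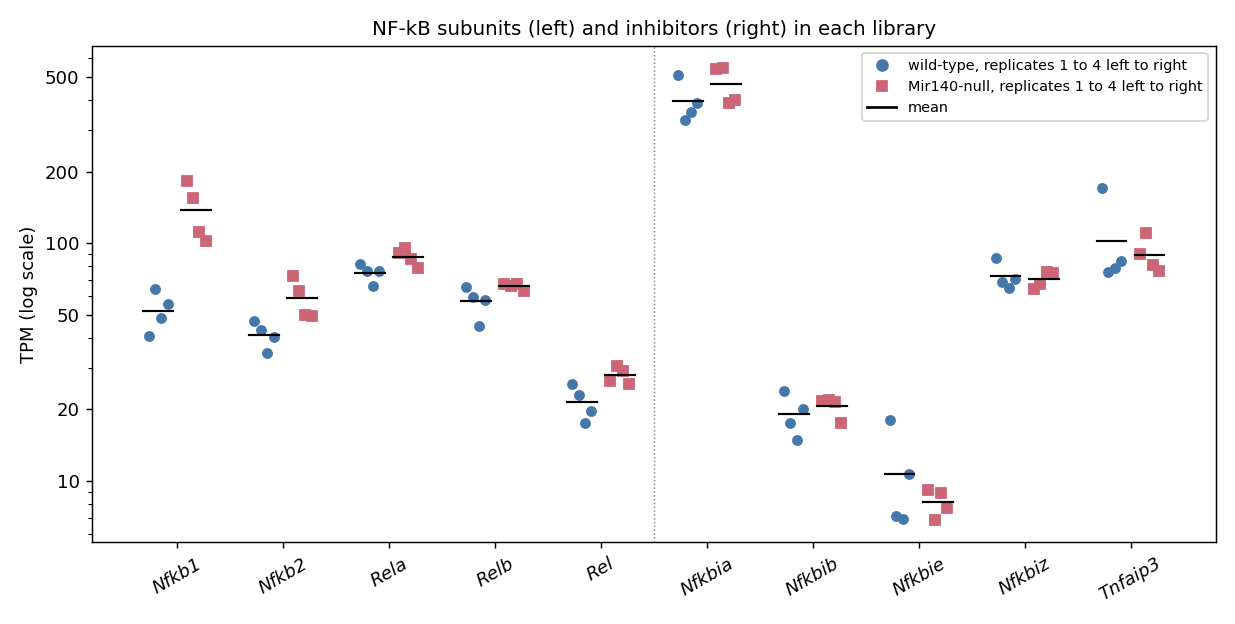
Level of each NF-κB member in each library, in TPM on a log axis, with subunits to the left and inhibitors to the right of the dotted line. Circles are WT and squares *Mir140*-null libraries in the order of replicates 1 to 4, and bars are group means. The *Nfkb1* squares, at 103 to 182 TPM, all lie above the circles, whereas the 2 groups overlap for every inhibitor.

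*Nfkb2* encodes the precursor of the subunit that partners RelB in the noncanonical pathway (chromosome 19, 46304320 to 46312385, plus strand). Its level was 46.9, 43.2, 34.7 and 40.5 TPM in the WT libraries and 72.6, 63.2, 50.1 and 49.7 TPM in the *Mir140*-null libraries. No *Mir140*-null library fell to the WT range, and replicates 1 and 2 were again the highest. The log2 fold change was 0.49 (SE 0.16, 95% interval 0.13 to 0.85) and the adjusted p was 0.0633, short of a call. Without *Mir140*-null replicates 1 and 2 the log2 fold change was 0.27 (adjusted p = 0.280), and with 1 factor of unwanted variation as a covariate, estimated here from residuals, the adjusted p was 0.0110 and 14.3% of all genes were called up-regulated.

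*Rel*, which encodes c-Rel, the subunit best known from lymphocytes (chromosome 11, 23736847 to 23770970, minus strand), was the subunit with the lowest level in both genotypes. It was at 25.5, 23.0, 17.6 and 19.7 TPM in WT and at 26.3, 30.4, 29.1 and 25.5 TPM in *Mir140*-null libraries. The groups did not overlap, but only just, with WT replicate 1 and *Mir140*-null replicate 4 rounding to the same value. A log2 fold change of 0.37 (SE 0.14, 95% interval 0.06 to 0.68) had an adjusted p of 0.0959. Lymphocyte markers were near 0 in both genotypes. The summed TPM of a list of 10 was 1.37 to 3.04 in WT and 1.47 to 3.18 in *Mir140*-null libraries.

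*Rela* encodes RelA, the transactivating partner in the classical dimer (chromosome 19, 5637483 to 5648130, plus strand), and varied little. It was at 81.5, 76.1, 66.1 and 76.5 TPM in WT and at 90.7, 95.2, 85.8 and 79.1 TPM in *Mir140*-null libraries. WT replicate 1 lay above *Mir140*-null replicate 4, so the groups overlapped. The log2 fold change of 0.22 (SE 0.10) was not called (adjusted p = 0.166), with a 95% interval of -0.01 to 0.46.

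*Relb* (chromosome 7, 19606217 to 19629438, minus strand) encodes RelB, the transactivating subunit of the noncanonical pathway. Its level was 65.6, 59.6, 44.8 and 57.6 TPM in WT libraries and 67.4, 66.2, 67.5 and 63.0 TPM in *Mir140*-null libraries. WT replicate 1 reached into the narrow range of the *Mir140*-null group, and WT replicate 3 was the lowest of all. The log2 fold change was 0.22 (SE 0.12, 95% interval -0.06 to 0.51, adjusted p = 0.243). All 5 subunits had a positive log2 fold change, with a median of 0.37, and kept that sign under both other scalings between libraries, although quantile normalization brought *Rela* to 0.05 and *Relb* to 0.06.

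*Nfkbia* encodes IκBα, the inhibitor that NF-κB itself induces in a feedback loop (chromosome 12, 55489410 to 55492647, minus strand), and had the highest level of the 10 genes in each library. It was at 512, 329.7, 358 and 388 TPM in WT and at 539, 543, 389 and 399 TPM in *Mir140*-null libraries. *Mir140*-null replicates 1 and 2 were the highest, WT replicate 1 came next, and replicates 3 and 4 of the null group were close to the remaining WT libraries. The log2 fold change was 0.24 (SE 0.18, 95% interval -0.17 to 0.64, adjusted p = 0.372), and it was 0.010 without *Mir140*-null replicates 1 and 2.

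*Nfkbib* (chromosome 7, 28758251 to 28767512, minus strand) and *Nfkbie* (chromosome 17, 45555703 to 45563169, plus strand) encode the related inhibitors IκBβ and IκBε and had the lowest levels of the 10. *Nfkbib* was at 24.0, 17.5, 14.9 and 20.1 TPM in WT and at 21.6, 21.9, 21.4 and 17.6 TPM in *Mir140*-null libraries, a log2 fold change of 0.12 (SE 0.16, 95% interval -0.24 to 0.48, adjusted p = 0.634). *Nfkbie* was at 18.0, 7.13, 6.95 and 10.7 TPM in WT and at 9.13, 6.89, 8.89 and 7.68 TPM in *Mir140*-null libraries, a log2 fold change of -0.27 (SE 0.28, 95% interval -0.90 to 0.37, adjusted p = 0.532). For both genes WT replicate 1 was the highest of the 8 libraries and the groups overlapped. Without that library the log2 fold change of *Nfkbie* was -0.0013.

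*Tnfaip3* encodes a ubiquitin-editing enzyme that shuts off signalling upstream of the kinase complex (chromosome 10, 19000910 to 19015657, minus strand). Its level was 171, 75.3, 78.8 and 84.3 TPM in WT libraries and 89.9, 111, 80.8 and 76.2 TPM in *Mir140*-null libraries. WT replicate 1 lay far above the other 7 libraries, whose values were mixed between the genotypes. The log2 fold change was -0.12 (SE 0.27, 95% interval -0.73 to 0.49, adjusted p = 0.780), and its sign turned to 0.15 without WT replicate 1. That library was also the highest for *Cxcl10* (named after its values were seen), an interferon- and NF-κB-responsive chemokine (959 TPM, against 330.3 to 537 in the other WT libraries), and for *Fos* (2761 TPM, against 951 to 1541). The part of this library's state in the *Tnfaip3* value was not tested.

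*Nfkbiz* encodes an atypical, nuclear IκB protein that alters the response of a subset of NF-κB target genes (chromosome 16, 55811375 to 55838899, minus strand). This gene is counted with the inhibitors here by its family and not by a tested effect. It was at 86.8, 68.6, 65.1 and 70.7 TPM in WT and at 64.4, 67.2, 75.5 and 74.6 TPM in *Mir140*-null libraries. The ranges were much the same apart from WT replicate 1. The log2 fold change of -0.04 (SE 0.12, 95% interval -0.31 to 0.22, adjusted p = 0.828) changed sign in several alternatives. Of the 5 inhibitors, 2 had a positive and 3 a negative log2 fold change, with a median of -0.04, and none was called by limma, nor was any at an unadjusted p under 0.05.

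**Figure D2:**
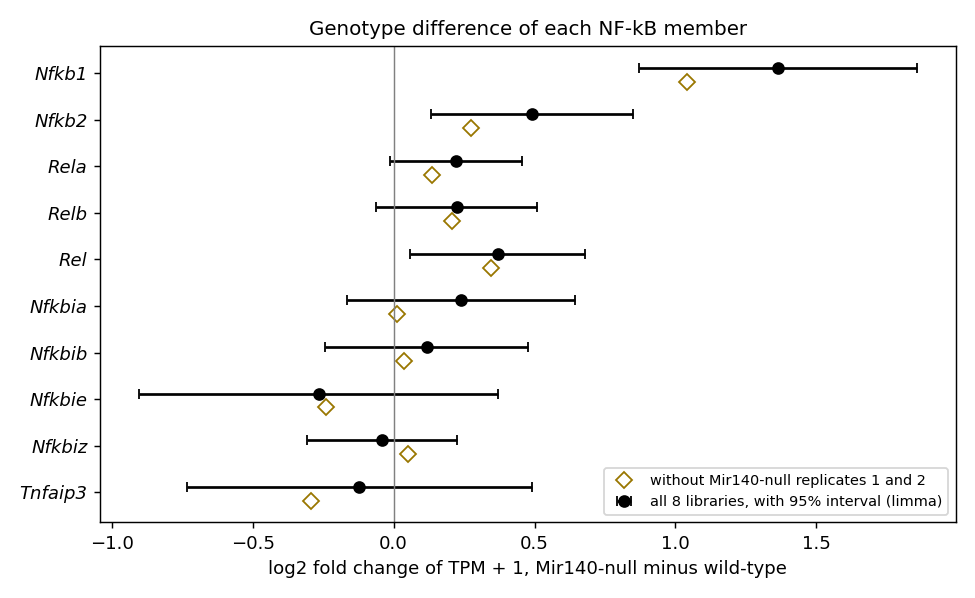
Difference between the genotypes for each member, as the log2 fold change of TPM + 1, *Mir140*-null minus WT. Filled circles with bars are the values from all 8 libraries with 95% intervals from limma, and open diamonds are the values without *Mir140*-null replicates 1 and 2. *Nfkb1*, at 1.36 and at 1.04 without those libraries, lies apart from the other members, and the intervals of all 5 inhibitors hold 0.

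The order of the levels within WT chondrocytes was *Nfkbia*, *Tnfaip3*, *Rela*, *Nfkbiz*, *Relb*, *Nfkb1*, *Nfkb2*, *Rel*, *Nfkbib* and *Nfkbie*, by mean TPM. Neighbours in this order were parted without overlap of their ranges only between *Nfkbia* and *Tnfaip3* and between *Nfkb2* and *Rel*. In *Mir140*-null chondrocytes *Nfkb1* moved from the sixth to the second place by mean, behind *Nfkbia*. Its range overlapped with that of *Tnfaip3*, the next gene, but it was the higher of the pair in each of the 4 null libraries. The other 9 genes kept their relative order by mean, although *Tnfaip3* exceeded *Rela* in only 1 of the 4 null libraries. The ranges of *Tnfaip3* and *Rela*, of *Nfkbiz* and *Relb*, and of *Relb* and *Nfkb2* overlapped there, and the other neighbours were parted.

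The make-up of the subunit transcripts therefore differed between the genotypes, as a description chosen after the values of *Nfkb1* were known. The TPM of the 5 subunits summed to 260.2, 266, 212 and 249.6 in WT libraries and to 439, 409, 344 and 319.9 in *Mir140*-null libraries. *Nfkb1* made up 15.6%, 24.1%, 22.9% and 22.1% of this sum in WT and 41.5%, 37.7%, 32.4% and 32.1% in *Mir140*-null libraries. Its share went from a mean of 21.2% ± 3.79 to 35.9% ± 4.5 (SD, n = 4). The shares of *Rela*, from 30.5% to 23.4%, and of *Relb*, from 23.0% to 17.7%, were lower in all *Mir140*-null libraries than in any WT library, although the TPM of neither gene was lower, because the sum was larger. The shares of *Nfkb2* and *Rel* overlapped between the genotypes. In WT libraries *Rela* exceeded *Nfkb1*, with a ratio of *Nfkb1* to *Rela* of 0.499 to 0.843, and in *Mir140*-null libraries it was the reverse, at 1.30 to 2.01.

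**Figure D3:**
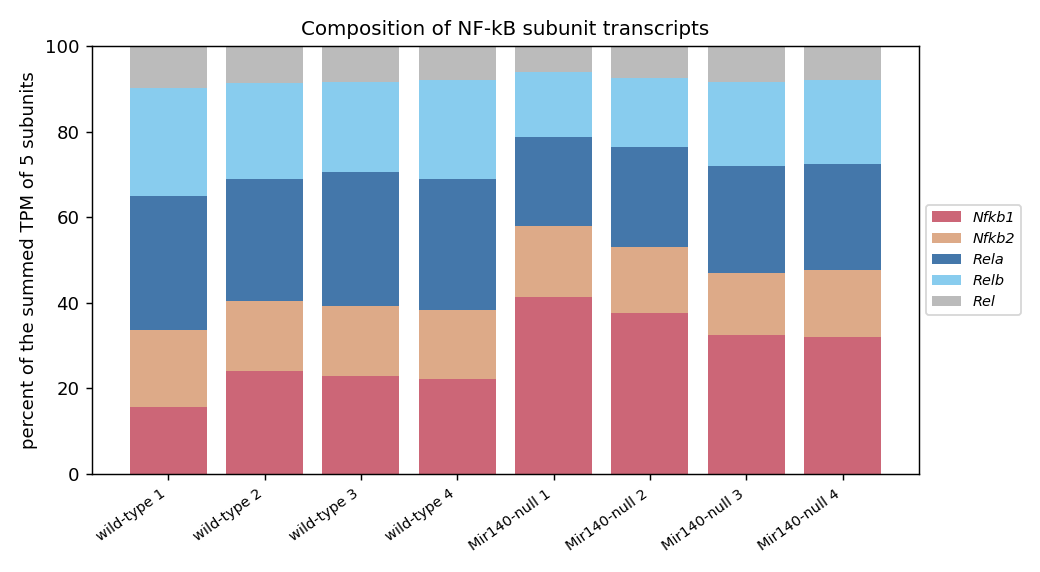
Share of each subunit gene in the summed TPM of the 5 subunits, in percent, with 1 stacked bar for each of the 8 libraries. *Nfkb1*, at the foot of each bar, takes 15.6% to 24.1% in WT and 32.1% to 41.5% in *Mir140*-null libraries.

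The summed inhibitor transcripts showed no such separation. The 5 inhibitors summed to 812, 498, 523 and 574 TPM in WT and to 724, 749.7, 576 and 575 TPM in *Mir140*-null libraries, with overlap of the groups. The ratio of the inhibitor sum to the subunit sum was 3.12, 1.87, 2.47 and 2.30 in WT and 1.65, 1.83, 1.67 and 1.80 in *Mir140*-null libraries. It was lower in every *Mir140*-null library than in any WT library, by 0.70 in the mean, but WT replicate 2 and *Mir140*-null replicate 2 almost met. The difference in the mean was 0.48 without WT replicate 1, the library with the highest ratio. *Nfkbia* made up 66.3% of the inhibitor sum in WT and 71.0% in *Mir140*-null libraries on average, and without it the ratio also did not overlap, with means of 0.83 and 0.50. The ratio of *Nfkbia* to *Rela* hardly differed, at 5.27 ± 0.81 and 5.31 ± 0.64 (SD, n = 4). These ratios rest on the same TPM as the results above, mostly those of *Nfkb1*, and carry no test. They count *Nfkb1* and *Nfkb2* as subunits alone, although the untrimmed precursors act as inhibitors, so they are no measure of inhibition.

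Binding sites for NF-κB are known from the promoters of several of these genes, and were looked for in the RefSeq promoter windows (GRCm38.p6), which run from 250 bases before to 50 bases after a start site. Windows were given for 7 of the 10 members, and the κB consensus motif of 10 bases, searched on both strands, was found in 5 of these 7 (*Nfkb2*, *Rel*, *Nfkbia*, *Nfkbie* and *Tnfaip3*). It was in none of the windows of *Rela* and *Nfkbib*. *Nfkb1*, *Relb* and *Nfkbiz* had no window in the table. Of the 10993 tested genes with a window, 12.5% held a match. A match of each gene, taken from several for *Nfkb2*, *Rel* and *Tnfaip3*, is shown 5′ to 3′ on the strand of the gene with 10 bases on each side, because it shows the motif in subunit genes as well as in the feedback inhibitors. Capitals mark the motif, and several are near-palindromes that match on both strands or at overlapping positions.
*Nfkb2*, chr19:46304698-46304707, plus strand: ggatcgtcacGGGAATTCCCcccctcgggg
*Rel*, chr11:23771052-23771061, minus strand: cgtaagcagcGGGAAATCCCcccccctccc
*Nfkbia*, chr12:55492667-55492676, minus strand: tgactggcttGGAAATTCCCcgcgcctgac
*Nfkbie*, chr17:45555594-45555603, plus strand: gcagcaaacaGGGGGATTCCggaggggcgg
*Tnfaip3*, chr10:19015413-19015422, minus strand: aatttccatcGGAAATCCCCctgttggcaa
Of these 5 genes, *Nfkb2* and *Rel* were higher without overlap in *Mir140*-null libraries, and *Nfkbia*, *Nfkbie* and *Tnfaip3* were not. Over all genes tested, 15.7% were higher without overlap. *Nfkb1*, also higher without overlap, had no window, so a link of the motif to the levels was not tested. A match is a description of the letters in these windows and no measure of binding.

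The members were also searched for seed matches of miR-140-3p, since a transcript that the miRNA represses could be higher without it. The 2 isomiRs differ by 1 base at the 5′ end, which shifts the seed (bases 2 to 8, in capitals). The longer sequence is the mature miRNA of RefSeq (chromosome 8, 107551288 to 107551308, plus strand, GRCm38.p6), and the shorter is the same without its first base. The forms that the study detected most in human cartilage have the same seeds but run further at the 3′ end.
miR-140-3p.2: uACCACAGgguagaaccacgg
miR-140-3p.1: aCCACAGGguagaaccacgg
For each gene, the longest 3′UTR in the annotation was searched on the strand of the transcript for CCTGTGG, which pairs with the seed of miR-140-3p.1, for CTGTGGT, which pairs with that of miR-140-3p.2, and for the 6 later bases of each followed by A. These words share the letters CTGTGG, so that 1 stretch can match both. Of the 10 members, 3 had a match for miR-140-3p.1 and another 3 had one for miR-140-3p.2. The shares among the 12988 tested genes with a 3′UTR were 30.3% for the shorter isomiR and 24.9% for the longer. The 3 members with a match of 8 bases, the longest form, are shown with 10 bases on each side, and capitals mark the match.
*Nfkb2*, miR-140-3p.1, chr19:46312172-46312179, plus strand: gccaccccagCCTGTGGAtggggcctca
*Rela*, miR-140-3p.1, chr19:5647867-5647874, plus strand: gctcttctgtCCTGTGGAgctcctgccc
*Nfkbiz*, miR-140-3p.2, chr16:55811961-55811968, minus strand: cccaacgttgCTGTGGTAgcaggcgggt
The levels of these 3 genes differed by 0.49, 0.22 and -0.04 on the log2 scale, and none was called. *Rel*, *Relb* and *Tnfaip3* had shorter matches. *Nfkb1*, the called member, had no match for either isomiR in its 3′UTR of 751 bases, nor did *Nfkbia*, *Nfkbib* and *Nfkbie*. *Rel* was the only member on a predicted target list of the study, that of miR-140-3p.2, although its mouse 3′UTR of 5418 bases held a match for miR-140-3p.1 alone. The lists give human symbols, matched here by letters. Sites for miR-140-5p were not searched here.

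Receptors, kinases and adaptors that lead to NF-κB numbered 26, and all of them were tested. Of these, 6 were called up-regulated and none down-regulated (limma, 12 and 0 at an unadjusted p under 0.05), against 10.5% of all genes up-regulated, and 11 were higher without overlap, against 15.7% of all genes. The list median log2 fold change was 0.33. The receptor *Tnfrsf1b*, which binds tumor necrosis factor, was at 12.4 to 20.7 TPM in WT and 41.0 to 55.9 TPM in *Mir140*-null libraries (log2 fold change 1.59, SE 0.21, adjusted p = 0.00651). *Irak2*, a kinase-like adaptor of interleukin-1 and Toll-like receptors, was at 28.5 to 42.4 TPM in WT and 71.4 to 91.2 TPM in *Mir140*-null libraries (1.17, SE 0.15, adjusted p = 0.00603). *Tab2*, which links ubiquitin chains to the kinase TAK1, was at 24.9 to 30.2 TPM in WT and 41.7 to 67.3 TPM in *Mir140*-null libraries (0.93, SE 0.18, adjusted p = 0.0163), and stands on the miR-140-3p.2 list of predicted targets. These 3 genes had no overlap between the genotypes. *Traf6*, a ubiquitin ligase of the same route that stands on the miR-140-3p.1 list, rose by 0.49 (SE 0.13, adjusted p = 0.0356), from 3.32 ± 0.50 to 5.02 ± 0.10 TPM (SD, n = 4), and *Traf2*, an adaptor of the tumor necrosis factor receptors, by 0.61 (SE 0.14, adjusted p = 0.0273). The sixth called gene, named after its values were seen, was *Traf1*, at 0.38. The genes of the kinase complex itself, also named after their values were seen, were not called, with log2 fold changes of 0.42 for *Chuk*, 0.13 for *Ikbkb* and -0.08 for *Ikbkg*. Without *Mir140*-null replicates 1 and 2 the list had 1 call, *Irak2*, against 2.08% of all genes, and a median of 0.36.

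Both *Tab2* and *Traf6* had a match in the 3′UTR for the isomiR that predicts them, shown because these are the called upstream genes that stand on a predicted list. Among tested genes with a 3′UTR, 24.9% had a match for the longer isomiR and 30.3% had one for the shorter. The predicted genes *Cyld*, *Otud7b* and *Lif*, described below, also had a match for their predicting isomiR and were not called. The match of *Tab2* lacks the base opposite the last seed position and that of *Traf6* lacks the final A.
*Tab2*, miR-140-3p.2, chr10:7906434-7906440, minus strand: gccccatctgTGTGGTAtcccatagaa
*Traf6*, miR-140-3p.1, chr2:101697728-101697734, plus strand: atttgaagggCCTGTGGctcatctgtc

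Another 18 negative regulators of the pathway were all tested, of which 5 were called up-regulated and none down-regulated (limma, 8 and 1 at an unadjusted p under 0.05), against 10.5% and 6.4% of all genes. The median log2 fold change was 0.26. The gene lower at the unadjusted p was *Nkiras1* (-0.62, adjusted p = 0.0554), named after its values were seen, which was called down-regulated after median-ratio scaling and after quantile normalization. The list also had 1 down-regulated call with a mean of at least 5 TPM, with 1 factor of unwanted variation, and without *Mir140*-null replicate 3. *Irak3*, which blocks signalling from interleukin-1 and Toll-like receptors, was at 3.38 to 5.71 TPM in WT and 8.45 to 10.8 TPM in *Mir140*-null libraries (0.90, SE 0.17, adjusted p = 0.0156). *Tax1bp1* (0.81, SE 0.13, adjusted p = 0.0103) and *Itch* (0.63, SE 0.14, adjusted p = 0.0232), whose products work with that of *Tnfaip3*, rose, whereas *Tnfaip3* was not called. *N4bp1*, an inhibitor of cytokine responses, rose by 0.59 (SE 0.12, adjusted p = 0.0173), and the fifth called gene, named after its values were seen, was *Zc3h12a*, a ribonuclease of inflammatory mRNAs, at 0.56. The deubiquitinases *Cyld*, on the miR-140-3p.1 list, and *Otud7b*, on the miR-140-3p.2 list, had log2 fold changes of 0.11 (adjusted p = 0.615) and 0.15 (adjusted p = 0.734). The 3′UTR of *Cyld* held 3 matches for its predicting isomiR, a match of 8 bases among them, and that of *Otud7b* held 2. No gene of this list was called by limma without *Mir140*-null replicates 1 and 2, where 7 were higher and 0 lower at an unadjusted p under 0.05, its median was 0.37 and 2.08% of all genes were called up-regulated.

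Textbook NF-κB-responsive genes, 32 in all and chosen with earlier results of these data known, showed the largest differences of the pathway. Of the 30 that were tested (*Il1b* and *Olr1* were too low), 15 were called up-regulated and none down-regulated (limma, 22 and 1 at an unadjusted p under 0.05), against 10.5% and 6.4% of all genes. Without overlap, 16 were higher, against 15.7% of all genes, and the median log2 fold change was 0.98. In the fit to genes with a mean of at least 5 TPM, 13 of 28 were called up-regulated, against 1643 of 9668 genes. *Mmp3*, a metalloproteinase that degrades cartilage proteoglycan, was at 48.0, 101.7, 76.2 and 111 TPM in WT and at 994, 619, 457 and 529 TPM in *Mir140*-null libraries (2.94, SE 0.32, adjusted p = 0.00405). *Nos2*, the inducible nitric oxide synthase, went from 6.24 ± 2.70 to 29.4 ± 9.30 TPM (SD, n = 4, 2.10, SE 0.31, adjusted p = 0.00818). *Ccl2*, a monocyte chemokine, was at 50.3 to 65.2 TPM in WT and 119 to 144 TPM in *Mir140*-null libraries (1.24, SE 0.12, adjusted p = 0.00340). The groups were wide apart for these 3 genes, and for *Ccl2*, unlike *Nfkb1* and *Mmp3*, replicates 3 and 4 of the null group were the highest.

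*Sod2*, the mitochondrial superoxide dismutase, rose from 8.32 ± 1.13 to 28.4 ± 11.8 TPM (SD, n = 4 each, 1.59, SE 0.26, adjusted p = 0.00978). The survival gene *Bcl2l1*, on the miR-140-5p list, rose by 1.17 (SE 0.23, adjusted p = 0.0166), and the cytokine gene *Lif*, on the miR-140-3p.1 list, had a log2 fold change of 0.48 (adjusted p = 0.109). The 5 responsive genes with a negative value, named after their values were seen, were *Cxcl10*, *Mmp9*, *Sele*, *Vcam1* and *Gadd45b*, from -0.88 to -0.10, none of them called. Without *Mir140*-null replicates 1 and 2, 6 of the 30 genes were called up-regulated, against 2.08% of all genes, and the median was 0.80. *Sod2*, *Mmp3* and *Ccl2* were among the 6, and so they were without WT replicate 1 as well.

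Immediate-early genes, which tissue digestion is known to switch on, were mostly lower. Of 10 immediate-early and heat shock genes, 7 were called down-regulated and none up-regulated (limma, 8 and 0 at an unadjusted p under 0.05), against 6.4% of all genes down-regulated, with a median of -1.51. Without *Mir140*-null replicates 1 and 2 there were 2 such calls, against 1.22% of all genes, with a median of -1.24, and without WT replicate 1 as well there were 3, against 0.931%. The summed TPM of the list was 7384 to 14397 in WT and 3115 to 5109 in *Mir140*-null libraries. Its part in the values of the NF-κB genes was not tested.

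**Figure D4:**
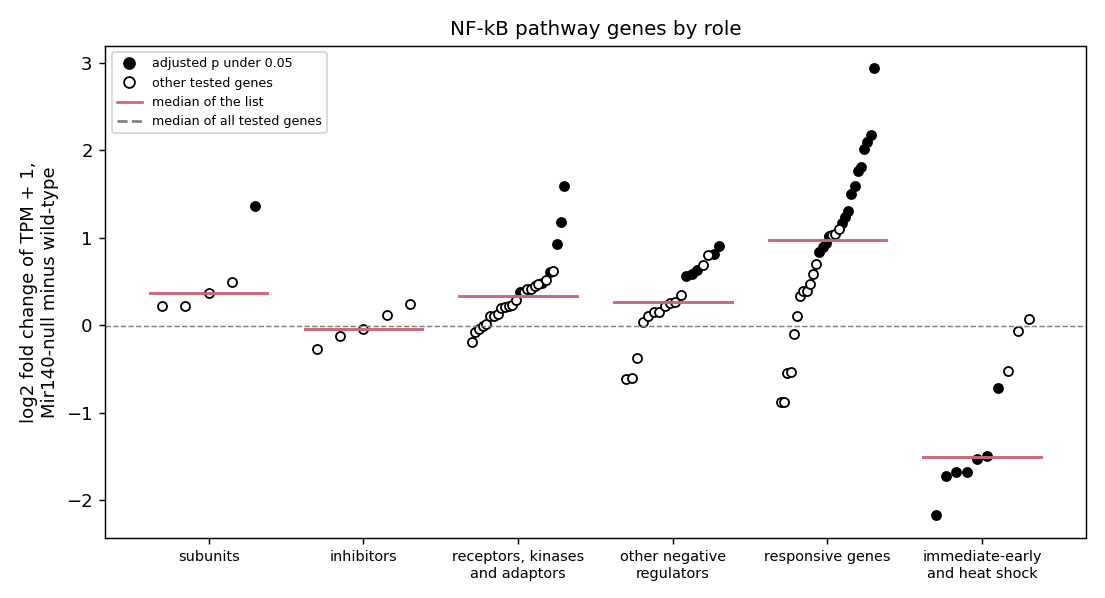
Log2 fold change of TPM + 1, *Mir140*-null minus WT, for the tested genes of each role, sorted within a role. Filled circles have an adjusted p under 0.05, solid lines are list medians and the dashed line is the median of all tested genes. The median is 0.37 for subunits, -0.04 for inhibitors, 0.33 for receptors, kinases and adaptors, 0.26 for other negative regulators, 0.98 for responsive genes and -1.51 for immediate-early and heat shock genes.

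Of the 10 cartilage markers, 1 (*Acan*, log2 fold change 0.88) was called up- and 3 down-regulated, against 10.5% and 6.4% of all genes. Without *Mir140*-null replicates 1 and 2 none was called, against 2.08% and 1.22% of all genes (limma, 1 higher and 4 lower at an unadjusted p under 0.05). The 3 lower calls became 1 when any single library other than *Mir140*-null replicate 4 was left out. Markers of other cell types moved with genotype in part. A list of 10 macrophage markers summed to 35.4 to 61.2 TPM in WT and 69.8 to 133 TPM in *Mir140*-null libraries. Of the 10, 4 were tested, with *Cd14* called up-regulated and *Lyz2* called down-regulated, against 10.5% and 6.4% of all genes. Without *Mir140*-null replicates 1 and 2, 1 was called up-regulated and 0 down-regulated, against 2.08% and 1.22% of all genes. The higher sum rested on *Cd14*, since the other 9 markers summed to 22.0 to 39.8 TPM in WT and 17.2 to 31.2 TPM in *Mir140*-null libraries. Of the defining markers, *Cd68* and *Csf1r* were not called and *Adgre1* was too low to be tested. *Cd68* averaged 29.0 ± 6.96 TPM (SD, n = 4) in the WT and 22.8 ± 7.47 TPM in the *Mir140*-null libraries, *Adgre1* was at or under 0.17 TPM in every library, and *Csf1r* was at 0.49 to 1.08 and 0.48 to 0.71 TPM. A list of 10 granulocyte markers summed to 2.10 to 6.04 TPM in WT and 6.91 to 10.4 TPM in *Mir140*-null libraries, with *Elane* at 0 in all but 1 library. Of the 4 tested, 1 was called up-regulated, against 10.5% of all genes. Without *Mir140*-null replicates 1 and 2, 0 were called, against 2.08% of all genes up-regulated (limma, 2 higher at an unadjusted p under 0.05). For 8 skeletal muscle markers, 5 of them tested, the sums were 79.3 to 105.8 and 37.5 to 62.7 TPM. The sums of endothelial markers (16.8 to 40.2 and 13.1 to 56.5 TPM) and of erythroid markers (646 to 1854 and 257 to 1725 TPM) overlapped. The part of other cells in the NF-κB values was not tested.

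Genes whose pattern over the 8 libraries was most like that of 2 members were found by the Euclidean distance between standardized log2(TPM + 1) values, among 9468 genes with a mean of at least 5 TPM. For *Rela* the nearest were *Tpp2* (0.724), *Mrpl17* (0.881) and *Scfd1* (0.889). For *Nfkbia*, whose highest libraries were *Mir140*-null replicates 1 and 2 and WT replicate 1, they were *H2-K1* (0.685), *Aimp1* (0.723) and *Tagap1* (0.754). For *Nfkb1*, added after its values were seen, they were *Dcaf13* (0.159), *Fam19a5* (0.252) and *Sf3b3* (0.273).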

How the data were processed

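Per the labels and the study's methods, reads of stranded poly(A) libraries were checked with FastQC 0.11.7 and mapped with Salmon to the mm10 transcriptome. Each table that the authors deposited gives TPM by Ensembl gene identifier, that is, values scaled by the length of the transcripts and the total of the library. Identifiers listed on several lines were counted once, after which each library summed to 1000000 TPM. Read counts were not used here, so depth is unknown and no error of counting is given. The study tested counts with RUVSeq factors. Because the files hold TPM, limma 3.58.1 (R 4.3.3) was fitted instead to log2(TPM + 1), with a mean-variance trend and genotype as the only term, for genes that reached 0.5 TPM in 4 or more of the 8 libraries. P-values were two-sided and adjusted by the Benjamini-Hochberg method over all 17177 genes. The pseudocount of 1 makes fold changes of low genes smaller than their ratios. The fit was tested on simulated data.

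The members and gene lists were chosen with earlier results of these data known. Named genes were the 10 members, and from each pathway list the 4 called genes with the smallest p in each direction and all genes on a predicted target list of the study's supplement. Likeness was set for *Rela* and *Nfkbia*. Other genes are named as chosen after their values were seen, or as markers.

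Libraries were grouped by the labelled genotype, and no 2 were identical. Alternatives were a replicate block, a pseudocount of 0.1, no filter, a mean of at least 5 TPM, quantile normalization, median-ratio scaling, 1 factor of unwanted variation from residuals (RUVr), limma's array weights, and each library left out. Fits without *Mir140*-null replicates 1 and 2, and without WT replicate 1 as well, were added after the data were seen. The 3′UTRs came from GENCODE M21, promoters and the miRNA from RefSeq (GRCm38.p6). Python 3.11.15, pandas 2.3.3 and matplotlib 3.10.9 were used for the rest.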

Additional observations from a re-analysis of the deposited data

Results flagged for a closer look

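In 64 groups of 4 values, the levels of the members and other values given by library in each genotype, a single library far from the other 3 was looked for by Dixon's test at the 95% level, which flags about 1 in 20 groups by chance. *Tnfaip3* stood out in WT replicate 1, at 171 TPM against 75.3 to 84.3 TPM in the other WT libraries, a gap of 0.907 of the group's range. *Nfkbib* stood out in *Mir140*-null replicate 4, at 17.6 TPM against 21.4 to 21.9 TPM in the other null libraries, a gap of 0.896 of the range. WT replicate 1 was also the highest WT library for *Nfkbia*, *Nfkbib*, *Nfkbie* and *Nfkbiz*.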

How the results depend on the processing

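Of 18 alternatives, *Nfkb1* was called up-regulated in 17, with a log2 fold change of 0.93 to 1.49. The exception was the fit without *Mir140*-null replicates 1 and 2 and WT replicate 1, where it was 0.93 and 0 members were called. No member was called down-regulated in any alternative. With 1 RUVr factor 2 members were called, the second being *Nfkb2* at 0.49. The other 8 members were called in none, and all subunits, *Nfkbia* and *Nfkbib* kept a positive sign in all 18. The signs of 3 members turned. *Nfkbie* was 0.025 without the 3 libraries. *Nfkbiz* was 0.036 with array weights, 0.052 without *Mir140*-null replicates 1 and 2, 0.14 without the 3, and -0.092 to 0.044 when each library was left out, the highest without WT replicate 1. *Tnfaip3* ranged from -0.24 to 0.15 when each library was left out, the highest without WT replicate 1, with a lowest value of -0.29 over all 18, and the causes were not tested.

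The 6 calls among receptors, kinases and adaptors became 3 with no filter, and 3 to 5 when each library was left out, the lowest without WT replicate 3 or *Mir140*-null replicate 2. They became 1 without *Mir140*-null replicates 1 and 2, and 0 without the 3 libraries. The 5 calls among other negative regulators ranged from 3 to 7 on leaving out each library (the 7, without *Mir140*-null replicate 3, being 6 higher and 1 lower), the lowest without WT replicate 1, WT replicate 3 or *Mir140*-null replicate 2, and were 0 in both added fits. The 15 calls among responsive genes became 9 with no filter, and 8 to 18 on leaving out each library, with 8 without WT replicate 3 or *Mir140*-null replicate 2 and 9 without WT replicate 4. They were 6 in both added fits. Calls over all genes also changed, from 1797 up-regulated of 17177 in the fit used above to 977 of 36617 with no filter. Up-regulated calls over all genes were 1035, 793 and 879 without WT replicate 1, 3 or 4. Without *Mir140*-null replicate 2 they were 779, and without replicate 3 of that group 1553. In the 2 added fits they were 357 and 206. The difference in the ratio of inhibitors to subunits ranged from -0.89 to -0.48 on leaving out each library.

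The replicate numbers are in the labels of both groups, but samples with the same number did not deviate together (correlations of 0.031, 0.016, 0.069 and -0.0091 across genes), so the block tests a shared number and no known pairing. With the replicate block *Nfkb1* had an adjusted p of 0.0424, 3 receptors, kinases and adaptors, 1 other negative regulator and 9 responsive genes were called, 3 immediate-early genes were called lower, and over all genes 671 were up- and 454 down-regulated. Over all genes, up-regulated genes were 62.0% of the calls (1797 and 1100), and 50.9% after median-ratio scaling (1368 and 1320), while the median of all genes moved by under 0.1 on the log2 scale. Without counts, the precision of low genes cannot be judged from depth.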
